A study of Homo sapiens with 3 samples.

Results

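All 10 cell polarity genes that act with atypical protein kinase C had a signal above background in unstressed HEK-293T cells. Atypical protein kinase C is the subgroup of PRKCI, the kinase at the centre of the study. The 10 genes were PARD3, PARD6A, PARD6B, PARD6G, CDC42, RAC1, LLGL1, LLGL2, SCRIB and DLG1. They were taken as a named list of the known partners of the kinase, and every probe set whose platform symbols include a listed gene was kept. This gave 34 of the 54675 probe sets of the array, 33 listed for a member alone and 1 listed for LLGL1 together with FLII. The 10 genes stand among 19775 with a probe set of their own. CDC42 and RAC1 lay far above the threshold by their brightest probe sets, SCRIB and DLG1 clearly above it, and PARD6A and LLGL2 close to it. Some other probe sets of CDC42, RAC1 and DLG1 lay near or under the threshold. Signals also depend on probe sequence, so these margins do not rank the genes by expression.

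Cell polarity is the unequal placing of proteins along an axis of the cell, as in an epithelial sheet with an apical and a basolateral side. At the apical side the Par complex forms, in which PARD3 is the scaffold, a PARD6 protein the adaptor and atypical protein kinase C the enzyme. The small GTPase CDC42 binds PARD6 in its active form, and RAC1 is a related GTPase whose exchange factor TIAM1 binds PARD3. On the basolateral side act SCRIB, DLG1 and the LLGL proteins, and atypical protein kinase C phosphorylates LLGL proteins and thereby keeps them off the apical membrane.

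RNA was measured on Affymetrix Human Genome U133 Plus 2.0 arrays, 1 array for each of 3 cultures. HEK-293T is a transformed human embryonic kidney line, described in the sample records as carrying an inserted temperature-sensitive SV40 T antigen. All 3 cultures were kept in DMEM with 10% serum, without heat or any other treatment. The first 48 h culture was seeded in a 6-well dish at 375K cells, the 24 h culture at 1000K and the second 48 h culture at 750K, the time being that from seeding to harvest. Effects of harvest time cannot be told apart from those of seeding or batch, and no stressed cells are among these arrays. The values are MAS5 signals, an intensity that summarises the probes of a probe set on a linear scale.

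Background was read from 273 reference probe sets for chemosensory receptors and for genes of other tissues, and a probe set counted as above it if each of the 3 arrays gave a signal over their 95th percentile. The thresholds were 114.8 in the first 48 h, 101.7 in the 24 h and 137.1 in the second 48 h culture. For a gene, 1 such probe set listed for no other gene was enough. Of the cell line's expected markers 7 of 9 genes were above background, among them the neurofilament NEFL and the keratin KRT18, while PAX2 and LHX1 were not. None of 4 blood and none of 3 endothelial marker genes was above background. Of 6 fibroblast genes COL1A1 was, on 1 of its 5 probe sets, and of 3 genes of the mature tubule LRP2 was. This COL1A1 probe set, 1556499_s_at, gave 429.0 in the first 48 h, 541.9 in the 24 h and 533.6 in the second 48 h culture. The brightest probe sets of all 6 fibroblast genes summed to between 644.5 and 884.3 per array.

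By this measure 10 of 10 polarity genes were above background, against 50.0% of all genes on the array. Of their 33 own probe sets 21 were (63.6%), against 36.6% of all probe sets. More probe sets give a gene more ways to pass, and 8 of the 10 polarity genes have several. Of all genes with several probe sets, 35.4% had none above background. The list was not drawn at random from the array, so these shares are a description. With the 99th percentile of the reference in place of the 95th, CDC42, RAC1, SCRIB and DLG1 stayed above background, or 4 genes with 9 probe sets. The 3 KRT10 probe sets of the reference gave 2639 to 3768, and without them, a choice made after seeing the data, the 99th percentile left 8 genes with 16 probe sets, PARD6A and LLGL2 being lost. Of the 12 remaining probe sets, 9 stayed under the threshold on every array, and 3 exceeded it on 1 or 2 arrays. Signals of different probe sets depend on their probe sequences, so the values below rank arrays within a probe set and never 1 gene against another.

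**Figure D1:**
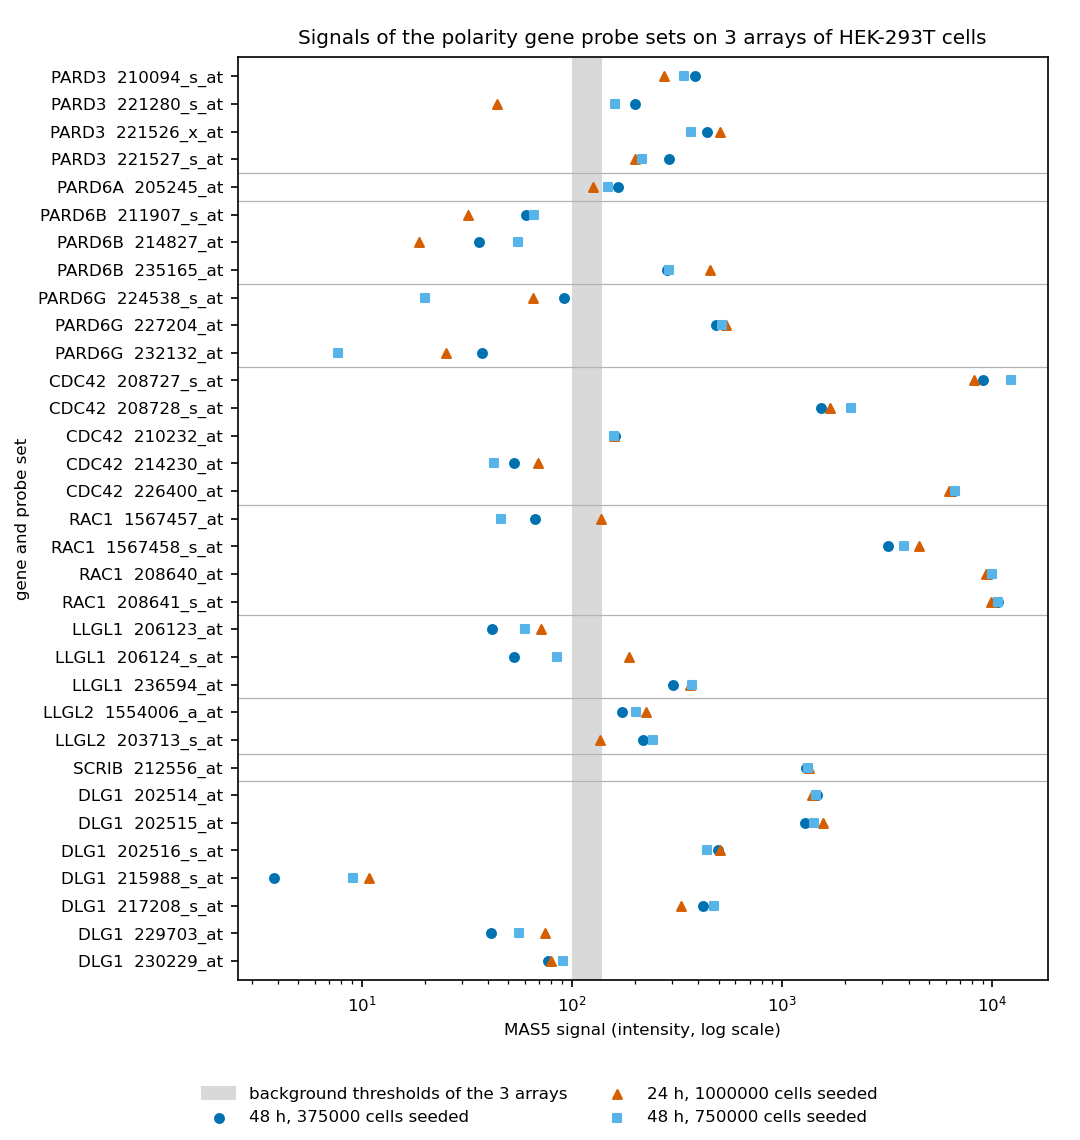
MAS5 signals (horizontal axis, intensity on a log scale) of the 33 probe sets listed for 1 polarity gene alone (vertical axis). Symbols are the 3 cultures, with a grey band from the lowest background threshold (101.7) to the highest (137.1). For PARD6B, PARD6G and LLGL1 a single probe set lies wholly to the right of the band, while the probe sets of SCRIB and PARD6A are the only ones listed for these genes.

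PARD3, the scaffold of the Par complex, was above background on 3 of its 4 probe sets. Probe set 221526_x_at gave 440.2 in the first 48 h, 505.0 in the 24 h and 367.2 in the second 48 h culture. Probe set 210094_s_at gave 385.4, 273.0 and 340.2, and 221527_s_at gave 290.6, 199.4 and 215.6, in the same order of cultures. The 24 h culture was thus the highest of the 3 on the first of these probe sets and the lowest on the other two. The probe set not above background, 221280_s_at, had the largest SD of all 33 on the scale of log2(signal + 22.9), 0.929. It gave 199.2 and 160.8 in the 48 h cultures, above the threshold of each, and 44.1 at 24 h, or 0.434 times the threshold there. All 4 probe sets are of kinds that can share sequence with other transcripts (_s_at or _x_at), so PARD3 has no call without them. Its RefSeq annotation lists 11 mRNAs, and which sequences each probe set matches was not analysed here. PARD3B, the paralog of PARD3, had 5 probe sets and none was above background, the brightest giving 99.3, 116.5 and 82.2.

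The PARD6 genes encode the adaptors that link the kinase to PARD3 and to active CDC42. Each was above background on exactly 1 probe set. PARD6G gave 486.2, 541.1 and 517.9 on 227204_at (515.1 ± 27.6, SD, n = 3 arrays). Its CV was 5.35%, against 13.7% for PARD6A and 28.1% for PARD6B on their probe sets above background. Each CV pools the 24 h and 48 h cultures, so it includes any difference between them and is not a spread of replicates. The other probe sets of PARD6G gave 91.9, 65.1 and 20.02 on 224538_s_at and 37.3, 25.1 and 7.70 on 232132_at. On both of these the second 48 h culture was the lowest, at signals where no value reached the threshold.

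PARD6B gave 283.4 and 288.7 in the 48 h cultures and 452.3 at 24 h on 235165_at. The 48 h values lay close together, and the 24 h value was outside their range. The other probe sets of PARD6B (211907_s_at, 214827_at) stayed between 18.8 and 66.5 on all arrays and were lowest at 24 h. So 1 probe set of the gene was higher at 24 h and the others, under the threshold, were lower. RefSeq lists a single mRNA for PARD6B and for PARD6G alike.

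PARD6A has a single probe set, which gave 165.9, 125.8 and 148.4 (146.7 ± 20.1, SD, n = 3 arrays). These were 1.08 to 1.45 times the thresholds, the smallest margin being in the second 48 h culture. PARD6A was no longer above background when the threshold came from the tissue-restricted reference genes alone (157.2 to 191.7), so its call rests on the choice of reference.

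CDC42, the GTPase that binds the PARD6 adaptors, passed on 4 of 5 probe sets, with signals of up to 89.3 times the threshold. The brightest, 208727_s_at, gave 9021, 8173 and 12236, and 226400_at gave 6606, 6202 and 6677. Probe set 208728_s_at gave 1532, 1685 and 2135. On the _s_at probe sets, 208727_s_at and 208728_s_at, the second 48 h culture stood above the other two, by 0.44 and 0.47 over the first 48 h culture on the log2 scale, while on 226400_at these cultures differed by 0.015. Near the threshold, 210232_at gave 159.9, 158.7 and 158.2, a signal SD of 0.904 that was the smallest of all 33 probe sets. The remaining one, 214230_at, stayed between 42.8 and 68.7.

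RAC1, which drives actin assembly at the cell's leading edge, was above background on 3 of 4 probe sets. Probe set 208641_s_at gave 10628, 9813 and 10661, and 208640_at gave 9781, 9321 and 10006, so on both the 48 h cultures were within a few percent of each other and the 24 h culture was the lowest. In contrast, 1567458_s_at gave 3182, 4491 and 3813 and was highest at 24 h. Its companion 1567457_at, listed for the same sequence record, gave 66.6, 137.9 and 46.2 and exceeded the threshold in the 24 h culture only. The pair from this record thus had its highest values at 24 h, and the other pair its lowest.

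Among the basolateral genes, SCRIB, a scaffold with leucine-rich repeats and PDZ domains, gave 1300, 1346 and 1332 on its single probe set (1326 ± 23.8, SD, n = 3 arrays). The 3 cultures lay within 2% of the mean (CV 1.80%), and every value was at least 9.72 times its threshold. The agreement of further probe sets could not be examined for this gene.

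DLG1, a membrane-associated guanylate kinase that works with SCRIB, was above background on 4 of 7 probe sets. Probe set 202514_at gave 1460, 1395 and 1444, and 202515_at gave 1291, 1570 and 1419. Probe sets 202516_s_at, with 494.8, 507.8 and 440.1, and 217208_s_at, with 422.8, 332.4 and 476.4, lay at 3.21 to 4.99 times the threshold. The 24 h culture was the highest on 202515_at and 202516_s_at and the lowest on 202514_at and 217208_s_at. The others, 215988_s_at, 229703_at and 230229_at, stayed under the threshold on each array, with means of 7.94, 57.2 and 82.6. RefSeq lists 27 curated mRNAs for DLG1, the most of the 10 genes, and which of them each probe set matches was not analysed here.

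The LLGL proteins are substrates of atypical protein kinase C. Both probe sets of LLGL2 were above background, at 1.34 to 2.21 times the thresholds. These gave 173.4, 224.5 and 202.9 on 1554006_a_at and 216.9, 136.6 and 243.1 on 203713_s_at, so the 24 h culture was the highest on the former and the lowest on the latter. Both calls of LLGL2 were lost with the tissue-restricted reference alone, and both probe sets are of the kinds that can share sequence (_a_at or _s_at). LLGL1 was above background on 236594_at, which gave 303.5, 364.0 and 372.8. Its other probe sets were highest at 24 h without reaching the threshold on all arrays, with 41.8, 71.5 and 59.99 on 206123_at and 53.3, 188.0 and 84.7 on 206124_s_at. The probe set listed for both LLGL1 and FLII gave 15.0, 76.1 and 20.8 and names neither gene.

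**Figure D2:**
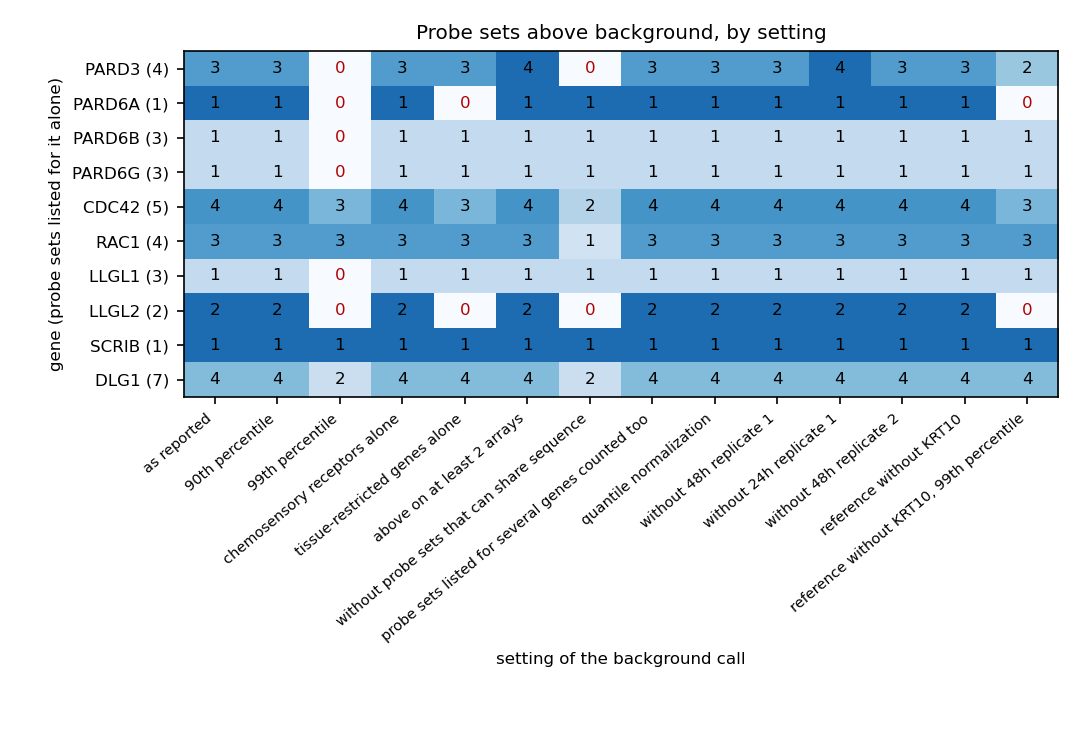
Number of probe sets above background for each gene (vertical axis, with the number listed for it alone in brackets) under each setting of the call (horizontal axis). Darker blue is a larger share of the gene's probe sets, and 0 is in red. SCRIB, DLG1, CDC42 and RAC1 kept at least 1 probe set in every column, and PARD6A and LLGL2 had none with the tissue-restricted reference alone.

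Probe sets of the same gene often differed in their call. Of the 8 polarity genes with several probe sets, 7 had some above background and some not, and LLGL2 alone had all above. Over all 10523 genes with several probe sets, 24.4% had all above background, 40.3% some and 35.4% none. Of the 17 polarity probe sets of the plain kind (_at) 10 were above background, and of the 16 of kinds that can share sequence 11 were. Over all probe sets of every kind the share was 36.6%. It was not computed for each kind, so these counts are a description only.

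The movement between cultures was compared as the log2 difference of the 24 h culture from the mean of the 48 h cultures, after adding 22.9, the median signal of the reference, to each value. Within CDC42 this difference was -0.36, -0.10 and -0.10 on the 3 brightest probe sets and 0.00 on 210232_at, where it turned to 0.04 when arrays were scaled to equal medians. PARD3, RAC1, DLG1 and LLGL2 each had probe sets above background on either side of 0. Between probe sets of the same polarity gene the differences were a median of 0.268 apart (19 pairs of 5 genes), and between those of all genes 0.202 apart (12354 pairs). LLGL2 had the largest gap, 0.896, followed by PARD3 with up to 0.693 and DLG1 with up to 0.62. The largest gaps were 0.482 in RAC1 and 0.359 in CDC42. Pairs of a gene share its probe sets and arrays, so these are descriptions and not replicates.

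None of the polarity probe sets passed a test between the 24 h and the 48 h cultures. In a limma fit whose prior variance followed the mean, 0 of the 21 tested had an adjusted p under 0.05 (Benjamini-Hochberg over 21869 probe sets), against 0.311% of all probe sets tested, with 52 higher and 16 lower at 24 h. At an unadjusted p under 0.05 there were 3 of the 21, against 9.53% of all. These were 1567458_s_at of RAC1, with a log2 difference of 0.36 (95% interval 0.12 to 0.61, adjusted p = 0.253), 208727_s_at of CDC42, with -0.36 (-0.64 to -0.09, adjusted p = 0.35), and 235165_at of PARD6B, with 0.62 (0.04 to 1.21, adjusted p = 0.483). The CDC42 value was -0.58 without the first 48 h culture and -0.14 without the second, that of RAC1 0.23 and 0.49, and that of PARD6B 0.61 and 0.63. The median over the 21 was -0.06 and over all tested probe sets 0.01 (0.005 before rounding), and 9 of the 21 were higher at 24 h. Each fit had a single residual degree of freedom, from the 48 h pair, and the lone array at 24 h is assumed to have the same spread. The 48 h cultures were seeded at 375K and 750K cells, so that spread includes any effect of seeding.

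The intervals show which sizes of difference this limma fit could not resolve. For the bright probe sets they were narrow, with -0.31 to 0.08 for 208641_s_at of RAC1, -0.30 to 0.10 for 226400_at of CDC42 and -0.26 to 0.32 for SCRIB. For PARD6A the interval ran from -1.15 to 0.60 and for 203713_s_at of LLGL2 from -1.43 to 0.11. Values lower by 1 on the log2 scale thus lay inside the intervals there. This contrast in width rests on the prior variance following the mean. Without that trend the standard errors were 0.14 for 208641_s_at and 226400_at and 0.15 for SCRIB. For PARD6A and 203713_s_at they were 0.16. The PARD3 probe set 221280_s_at was too low on average to be tested. In a fit without the filter on low signals it gave -1.59 (95% interval -2.86 to -0.33, limma adjusted p = 0.676).

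**Figure D3:**
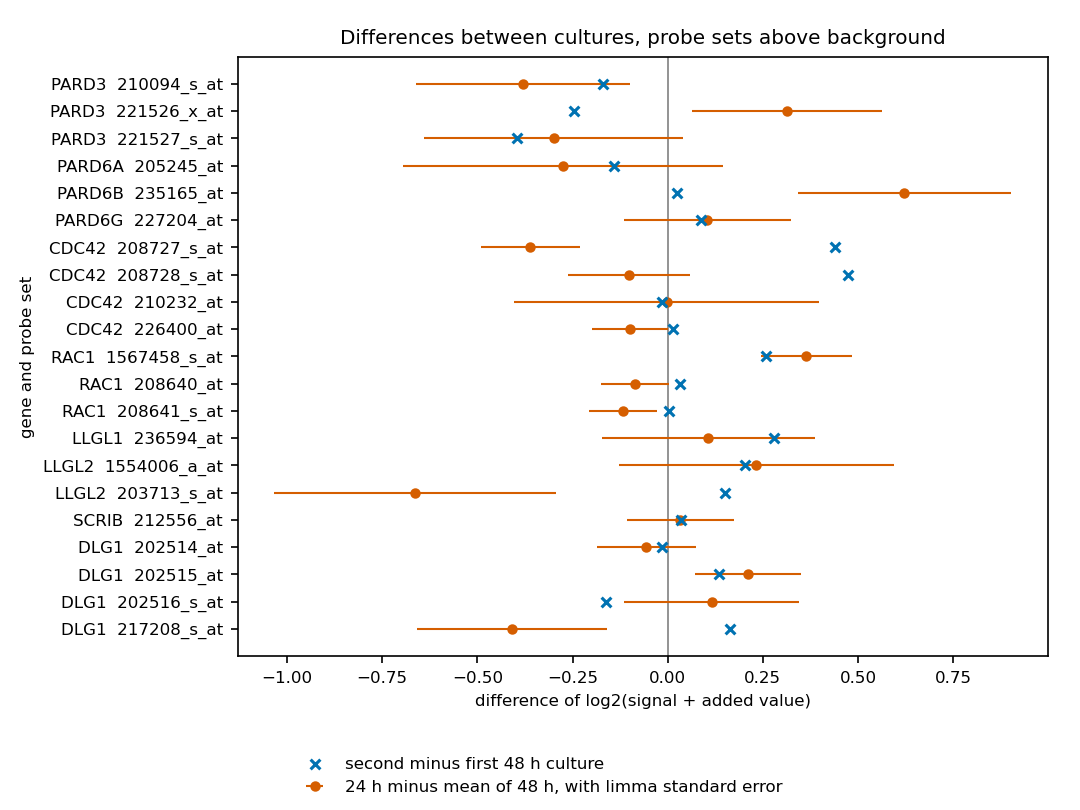
Differences of log2(signal + 22.9) for the 21 polarity probe sets above background (vertical axis). Circles are the 24 h culture minus the mean of the 48 h cultures with the standard error of limma, and crosses are the second minus the first 48 h culture. For 208728_s_at of CDC42 the cross (0.47) lies farther from 0 than the circle (-0.10), while for 235165_at of PARD6B the cross lies at 0.03 and the circle at 0.62.

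Over the 21 probe sets the median size of the difference of the 24 h culture from the 48 h mean was 0.211, and that of the difference between the 48 h cultures 0.15, against 0.151 and 0.143 over all probe sets above background. The former sets an array against a mean and the latter an array against an array, so these sizes are not on equal terms. In 18 of the 21 the 24 h value lay outside the range of the 48 h pair (85.7%), against 71.5% of all probe sets above background. The spread between arrays depended on the signal. For mean signals of 100 to 400 the median SD on the log2 scale was 0.204 in 8 polarity probe sets and 0.211 in all 6394. For 400 to 1600 it was 0.105 in 7 and 0.142 in 7820, and above 1600 it was 0.156 in 6 and 0.091 in 5817. The wide ones above 1600 were both bright _s_at probe sets of CDC42 (0.303 and 0.244) and 1567458_s_at of RAC1 (0.247), while 226400_at of CDC42 and the other RAC1 probe sets lay between 0.052 and 0.068.

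**Figure D4:**
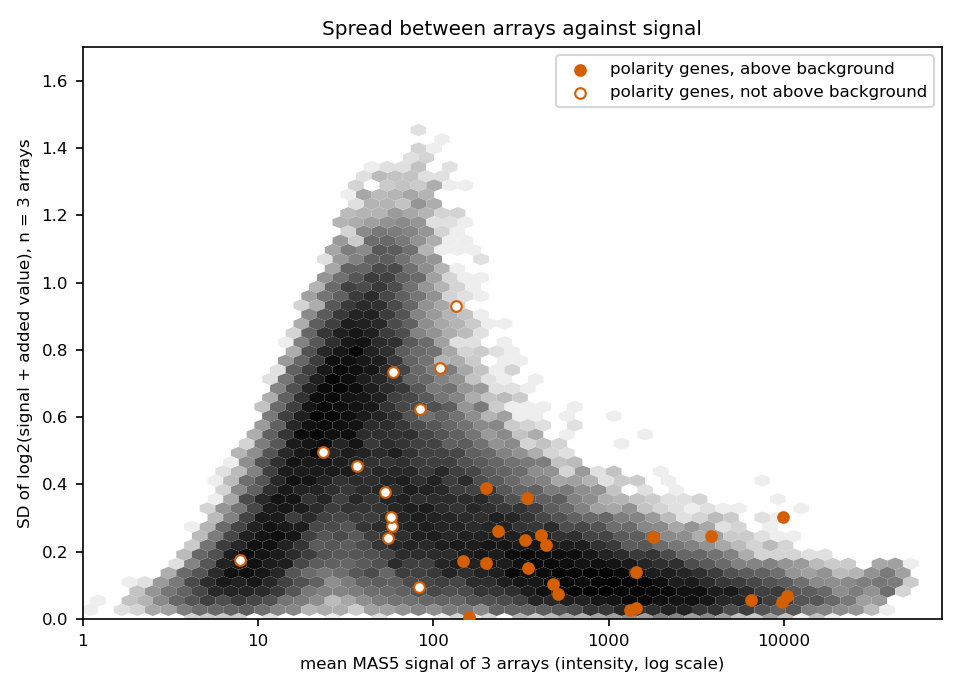
SD of log2(signal + 22.9) over the 3 arrays (vertical axis) against the mean signal (horizontal axis, intensity on a log scale). Grey shading is the number of all probe sets on the array, darker being more, filled circles are polarity probe sets above background and open circles those not above. The filled circle at a mean of 9810 and an SD of 0.303 is 208727_s_at of CDC42.

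The kinases that these genes work with were both above background. PRKCI gave 334.0, 327.6 and 273.6 on 209677_at, 1896, 1818 and 1989 on 209678_s_at and 1846, 1902 and 1422 on 213518_at, and PRKCZ, the other atypical isoform, gave 633.1, 726.2 and 623.4 on its single probe set.

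The Crumbs complex, the second apical module, was above background for 5 of 9 genes, near the 50.0% of all genes on the array. The scaffold PALS1, which joins Crumbs proteins to PATJ, gave 1448, 1359 and 1572 on its brightest probe set, and LIN7C, an adaptor of PALS1, 3839, 3660 and 2825. For PATJ itself 1 of 6 probe sets passed, with 171.9, 142.5 and 191.4. The Crumbs transmembrane proteins were not, with the brightest probe sets of CRB1, CRB2 and CRB3 at means of 18.4, 4.42 and 71.95, nor was LIN7B, with 151.7, 149.0 and 99.4.

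All 11 listed Par kinases and 14-3-3 proteins, which bind phosphorylated polarity proteins, were above background, against 50.0% of all genes on the array. Among the relatives of DLG1, SCRIB and the LLGL genes 5 of 9 were above background, again near the share of all genes. On their brightest probe sets DLG5 gave 1876, 1696 and 1769, the SCRIB relative ERBIN 1819, 1546 and 2121, and DLG3 415.8, 493.1 and 515.2. LRRC1 was also above, as was STXBP5 with 220.6, 244.5 and 223.2. DLG2, DLG4, LRRC7 and STXBP5L were not above background.

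Of the relatives of CDC42 and RAC1, 8 of 11 measured were above background. RAC3 gave 970.4, 1044 and 1073, while RAC2, the isoform of blood cells, gave at most 34.0 on its brightest probe set, and RHOJ and RHOV were not above background either. Of the exchange factors, GTPase-activating proteins and inhibitors 15 of 16 were above background. TIAM1, the exchange factor that binds PARD3, gave 1181, 1094 and 1105, and ECT2, an exchange factor known from cytokinesis, 2343, 2924 and 2587. The exception was ARHGDIB, a GDP-dissociation inhibitor of blood cells, with 114.1, 46.9 and 172.4. Of the effectors 12 of 14 measured were above background, and WAS and CDC42BPB were not. Beside these counts, 50.0% of all genes on the array were above background. Of the genes with several probe sets, 35.4% had none above. The lists were not drawn at random from the array, so their counts are a description. RHOD, PAK1, PAK3 and WASF1 have no probe set listed for them alone here.

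Of the 124 probe sets of these lists that were tested between harvest times, 1 passed, against 0.311% of all probe sets tested, and 13 had an unadjusted p under 0.05, near the 9.53% of all. The 14-3-3 protein YWHAE gave 10067 at 24 h and 6723 and 7590 at 48 h on 210996_s_at, 0.49 higher on the log2 scale by limma (adjusted p = 0.0442, standard error 0.10), which rests on the single 24 h array. This call was lost without the filter on low signals (adjusted p = 0.0553), after scaling to equal medians (0.984) and without the mean-variance trend (0.745), where limma called 0 probe sets of the whole array. YWHAE has 2 probe sets of its own, both above background, and 210996_s_at was the only one called. The median log2 difference was 0.13 for the Crumbs complex (11 probe sets) and -0.15 for the GTPase relatives (18). It was 0.04 for exchange factors and their kin (26) and 0.10 for effectors (30). For the atypical kinases it was 0.15 (4), for the Par relatives, Par kinases and 14-3-3 proteins 0.06 (25). For the relatives of DLG1, SCRIB and the LLGL genes it was -0.06 (10). Over all 124 it was 0.05, and over all tested probe sets of the array 0.005.

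**Figure D5:**
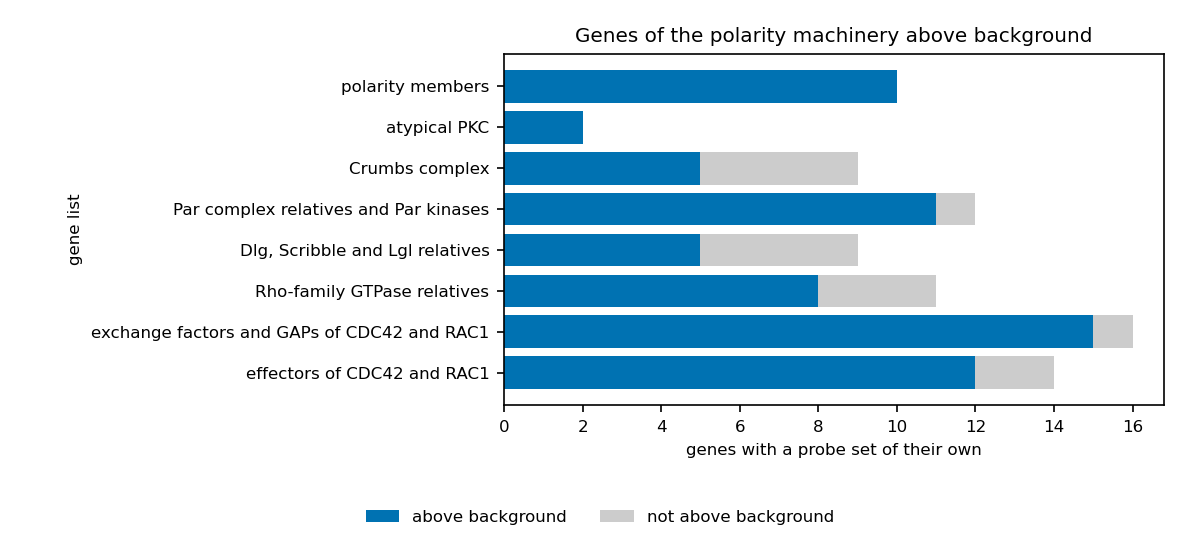
Number of genes with a probe set of their own (horizontal axis) that were above background (blue) or not (grey) in each list of the polarity machinery (vertical axis). All 10 polarity genes and both atypical kinases were above background, against 5 of 9 for the Crumbs complex.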

How the data were processed

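Total RNA of 3 cultures was labeled by the authors with biotin and hybridised to 1-colour arrays. The deposited values are MAS5 signals, an intensity on a linear scale, made by the authors with GCOS 1.0 as the processing notes give it, and every array had a mean of 500.1 once the lowest and highest 2% of signals were set aside. RNA integrity numbers were 9.6, 9.5 and 10.0. Separate passages are not stated for the cultures, so p-values measure only the spread between these samples. Array number limits the precision. Absent/present calls were not used here.

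From these signals the following was computed with Python 3.11.15 and limma 3.58.1. Probe sets were named by the platform annotation, with symbols updated by gene ID to GRCh38.p14. A single gene is given for 41097 of 54675 probe sets, several for 1801 and no gene for 11777. The reference held 127 probe sets of olfactory and taste receptors and further ones of tissue-restricted genes. Of the 273, 7 were themselves above background, 3 of them of KRT10. Limma was fitted to the probe sets whose mean log2(signal + 22.9) exceeded that of the mean threshold (117.9), and low signals have understated changes on this scale. Scripts were tested on simulated data. All members were to be named, and of other lists the smaller side. The members and lists were chosen with earlier results of these data known. Alternatives were other percentiles, references, array numbers, normalizations, added values, filters and each array left out.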

Additional observations from a re-analysis of the deposited data

How the results depend on the processing

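The 10 polarity genes and 21 probe sets above background became 4 and 9 with the 99th percentile of the reference, where the thresholds were 1048.3 to 1333.3 and PARD3, the PARD6 genes and the LLGL genes were lost. Without the KRT10 probe sets of the reference, an alternative chosen after seeing the data, the 99th percentile gave 8 genes and 16 probe sets. Without probe sets of kinds that can share sequence 10 probe sets remained, of 8 genes. With each array left out in turn there were 10 genes and 21 to 22 probe sets. No polarity probe set passed limma's test under any alternative run, the lowest adjusted p being 0.215 to 1, while over all probe sets 68 were called, against 6 after scaling to equal medians and 0 without the trend (1353 at an unadjusted p under 0.05). The direction turned for 210232_at of CDC42 (0.04 after scaling to equal medians), and with a 48 h array left out for 236594_at of LLGL1 or 208728_s_at of CDC42. Leaving out a 48 h array leaves no residual degree of freedom, so the test could not be run there. The disagreement between probe sets ran from 0.261 to 0.354. Low signals limit what PARD6A and LLGL2 show.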

Other observations

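Noncoding genes named after their position beside polarity genes have probe sets of their own and belong to none of the comparisons above. DLG1-AS1 gave 21.2 in the first 48 h, 13.8 in the 24 h and 38.8 in the second 48 h culture. PARD6G-AS1 gave 96.0, 22.7 and 37.4 on 1557590_at and 10.7, 8.66 and 17.6 on 230477_at. PARD3-DT gave 4.62, 9.29 and 104.5. All of these values were under the threshold of their array.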
